A study of Mus musculus with 12 samples.

Results

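The genes described here are 10 targets and secreted modulators of Wnt signalling: Axin2, Nkd1, Lef1, Sp5, Lgr6, Sfrp1, Sfrp2, Wif1, Notum and Dkk2. They were selected on measured values, since their levels in every library of this study had been compared over all 5 groups, so their levels and changes are given as a description, and no p-value of a single member is printed. All 10 have a row among the 52636 gene identifiers of the count table. Of these, 9 passed the filter on low counts that kept 15859 genes, and Notum did not.

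Wnt ligands are secreted lipid-modified proteins that bind Frizzled receptors with the co-receptors Lrp5 and Lrp6, and so stabilise β-catenin, which with Tcf and Lef factors switches on target genes. Several targets, among them Axin2, Nkd1 and Notum, feed back to restrain the pathway. Secreted modulators such as the Sfrp, Dkk and Wif proteins act outside the cell on ligands or co-receptors. In the embryonic salivary gland, canonical Wnt activity is known from the mesenchyme and from the forming ducts, and Sfrp1 has been described in the end buds.

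RNA was sequenced from mouse embryonic salivary glands dissected from E13.5 embryos and cultured on filters for 2 days. The FGFRi group (3 libraries) was wild-type glands with SU5402, an inhibitor of FGF receptor kinases, at 2.5 µM, and its DMSO group (3 libraries) was wild-type glands with the solvent. The HOM group (2 libraries) was untreated glands homozygous for a deletion of Fgfr2b, the epithelial splice form of an FGF receptor, by a Cre driven from the keratin 14 promoter in epithelium. Its controls were untreated HET (2 libraries) and WT (2 libraries) littermate glands. The Cre and floxed alleles that the WT and HET littermates carried, and whether the libraries of a group came from separate embryos, are not given in the labels, so the spread between replicates may be partly technical. All 12 libraries carry 1 batch label.

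The region around the start of a gene is shown for 3 members whose behaviour differed under the inhibitor: Sfrp2 and Axin2, which were higher, and Sp5, which was not called. The sequences run from 250 bases before to 50 bases after the start, are from RefSeq on build GRCm38.p6 and are on the plus strand. The count table was made on build GRCm39, so these coordinates are not those of the counted reads. RefSeq promoters were matched for 8 of the 10 members (11 promoters), the exceptions being Notum and Sfrp1. Capitals mark a match to CTTTGAT, 1 of 2 forms of the Tcf and Lef binding motif searched on both strands, and the other form was CTTTGAA. The 2 forms share their first 6 bases, so they cannot begin at the same base.
Sfrp2, chr3:83766071-83766370: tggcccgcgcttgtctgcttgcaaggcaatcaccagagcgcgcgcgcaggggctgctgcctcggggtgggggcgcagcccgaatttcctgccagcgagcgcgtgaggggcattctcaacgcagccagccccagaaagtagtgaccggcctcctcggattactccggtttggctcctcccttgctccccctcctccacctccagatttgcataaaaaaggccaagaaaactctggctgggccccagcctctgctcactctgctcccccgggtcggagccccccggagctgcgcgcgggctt
Axin2, chr11:108920099-108920398: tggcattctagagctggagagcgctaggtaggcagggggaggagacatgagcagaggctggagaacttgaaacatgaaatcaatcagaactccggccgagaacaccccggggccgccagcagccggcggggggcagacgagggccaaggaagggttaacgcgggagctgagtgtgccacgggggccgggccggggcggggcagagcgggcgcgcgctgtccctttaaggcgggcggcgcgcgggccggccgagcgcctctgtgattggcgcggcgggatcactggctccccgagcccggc
Sp5, chr2:70474673-70474972: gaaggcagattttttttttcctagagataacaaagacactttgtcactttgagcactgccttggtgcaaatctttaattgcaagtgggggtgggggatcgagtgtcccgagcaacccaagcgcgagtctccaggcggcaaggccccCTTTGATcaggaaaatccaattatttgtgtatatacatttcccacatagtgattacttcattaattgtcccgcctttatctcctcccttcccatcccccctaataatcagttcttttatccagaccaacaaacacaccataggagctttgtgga
The Sp5 window held a match that began 104 bases before the start, and no other member's window held either form. Among all 32851 RefSeq promoters of the same length, 3.73% held CTTTGAT, 5.14% held CTTTGAA and 8.65% held either. A match is a description of these letters and says nothing about binding.

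Total counts ran from 6043701 to 22322182 per library. Levels below are CPM, counts scaled to a common library size after TMM normalization, which sets library sizes from the bulk of genes. The TMM factor ran from 0.767 in FGFRi 1 to 1.23 in FGFRi 2. Mitochondrial genes held 3.93% (HOM 2) to 14.2% (FGFRi 1) of counts, and rRNA-like genes 12.6% (FGFRi 2) to 30.2% (FGFRi 1). A gene is called where edgeR's quasi-likelihood test over all 15859 genes gave a Benjamini-Hochberg adjusted p under 0.05. Fgfr2, the targeted gene, was counted over the whole gene, which does not isolate the deleted splice form: it had 89.2 and 94.4 CPM in HOM libraries, against 86.2 and 99.9 CPM in HET libraries and 101 and 99.2 CPM in WT libraries, so the counts do not check the HOM label. The FGF-induced factor Etv4 averaged 16.6 ± 1.96 CPM in FGFRi libraries and 38.5 ± 3.15 CPM in DMSO libraries (SD, n = 3 each), and 38.0 ± 3.73 CPM in HOM libraries, 25.5 ± 0.899 CPM in HET libraries and 26.4 ± 1.88 CPM in WT libraries (SD, n = 2 each). Etv4 was called lower in FGFRi against DMSO and higher in HOM against WT and HET. Of 9 FGF response genes, 8 were called lower in FGFRi, while 3 were called higher and 1 lower in HOM. Counts of Xist and Y-linked genes marked every FGFRi and HOM library as female and every HET and WT library as male, and in the DMSO group DMSO 2 as male. Sex and genotype therefore cannot be told apart in the HOM comparison.

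The tissue makeup of the libraries moved with the groups as well. A list of 15 mesenchyme genes, including Col1a1 and Pdgfra, summed to 3650 to 5130 CPM in FGFRi libraries, against 2240 to 2330 CPM in DMSO libraries. In the cross it summed to 3880 to 4060 CPM in HOM libraries, 3520 to 3850 CPM in HET libraries and 2430 to 2540 CPM in WT libraries, with 1 of its genes, Tcf21, at 0 in all DMSO, HOM and WT libraries. A list of 15 epithelial genes, including Epcam and Cdh1, summed to 2240 to 2530 CPM in FGFRi libraries and 3080 to 3620 CPM in DMSO libraries. It summed to 2120 to 2240 CPM in HOM, 2700 to 2960 CPM in HET and 3180 to 3280 CPM in WT libraries. Of the mesenchyme genes tested, 13 of 14 were called higher in FGFRi, and of the epithelial genes 13 of 15 were called lower. The labelled tissue was thus represented by both compartments in every library. A list of 7 proximal duct and basal epithelial genes, including Krt5 and Krt14, did not fall with the epithelial list under the inhibitor. It summed to 979 to 1350 CPM in FGFRi and 832 to 1270 CPM in DMSO libraries, with 3 genes called higher and 1 lower. In the cross it summed to 597 to 609 CPM in HOM, 804 to 897 CPM in HET and 679 to 967 CPM in WT libraries, with 1 gene called lower in HOM. A list of 14 skeletal muscle genes summed to 195 to 859 CPM in FGFRi libraries and 30.7 to 96.0 CPM in DMSO libraries, and to 225 to 249 CPM in HOM, 117 to 222 CPM in HET and 16.6 to 22.2 CPM in WT libraries. In whole glands, fewer cells of a type and less RNA per cell cannot be told apart.

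Sfrp1 was the dominant transcript of the set. On the scale of CPM per kilobase of exon, it averaged 77.3 ± 6.67 in FGFRi glands and 116 ± 18.7 in DMSO glands (SD, n = 3 each), and 89.8 ± 1.21 in HOM, 74.1 ± 8.17 in HET and 90.4 ± 7.87 in WT glands (SD, n = 2 each). Sfrp2 came next, with a mean of 32.7 ± 5.69 CPM per kilobase in FGFRi and 9.29 ± 1.12 in DMSO glands (SD, n = 3 each). Its means were 15.6 ± 1.26 in HOM, 20.5 ± 0.563 in HET and 14 ± 1.64 CPM per kilobase in WT glands (SD, n = 2 each), so Sfrp1 and Sfrp2 were the first and second gene of the order in every group. Axin2 followed at 6.71 ± 1.34 CPM per kilobase in FGFRi and 2.14 ± 0.606 in DMSO glands, where Sp5, at 2.17 ± 0.860, was within its spread. Lgr6, Dkk2, Nkd1 and Sp5 lay between 1.81 and 3.80 CPM per kilobase in FGFRi glands and between 0.836 and 2.17 in DMSO glands, and neighbours in the order of these 4 overlapped within their spread. In the untreated glands Axin2 averaged 3.43 ± 0.17 CPM per kilobase in HOM, 3.19 ± 0.49 in HET and 2.94 ± 0.43 in WT (SD, n = 2 each), above these 4 genes in each group. Wif1 averaged 0.678 ± 0.212 CPM per kilobase in FGFRi and 0.196 ± 0.130 in DMSO glands, above Notum and Lef1, which were at or below 0.178 in every group.

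**Figure D1:**
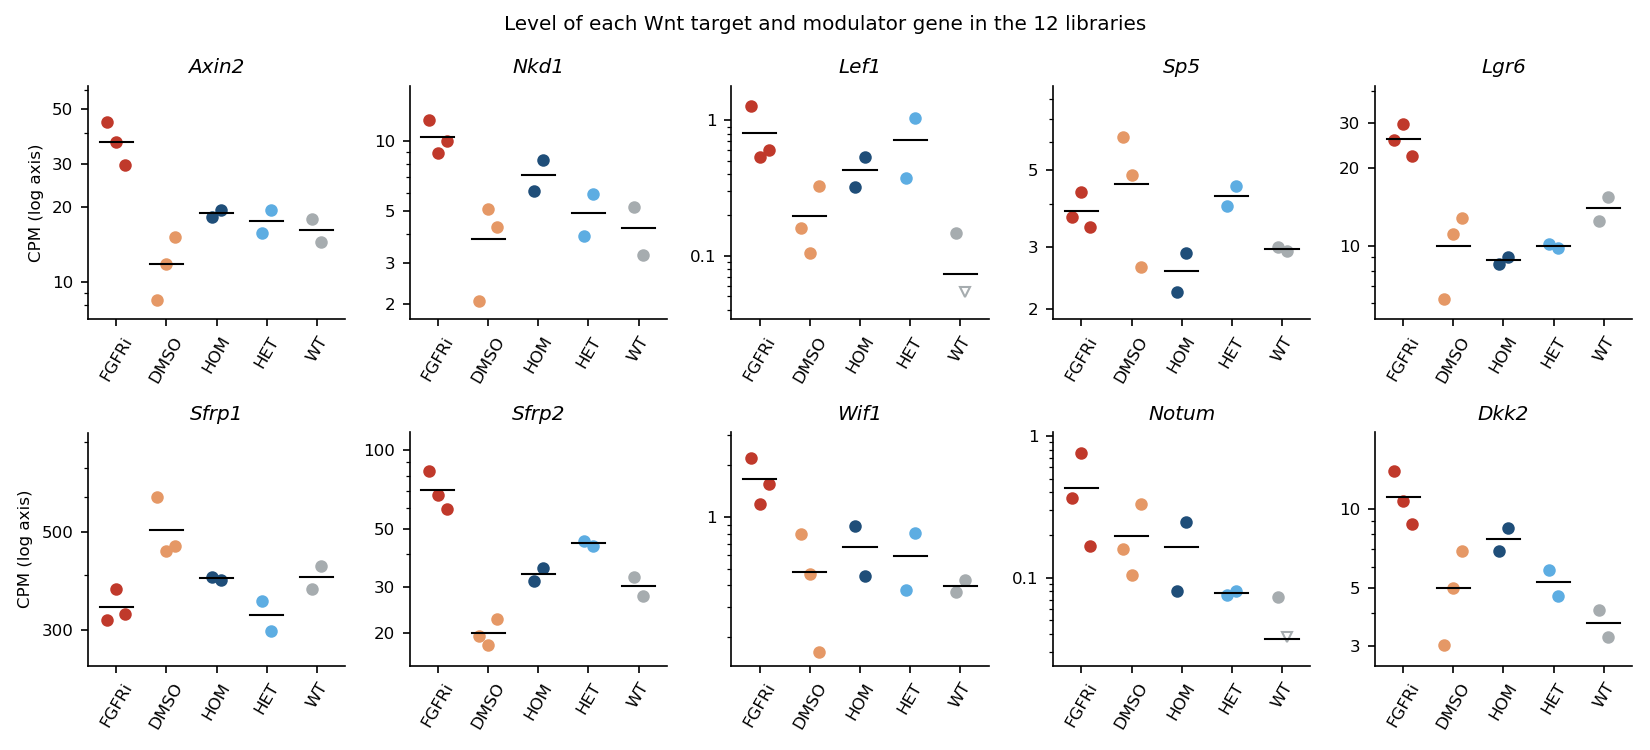
Level of each of the 10 genes in CPM (log axis, a separate range for each panel) in the 3 FGFRi, 3 DMSO, 2 HOM, 2 HET and 2 WT libraries. Points are libraries in order of replicate number, bars are group means, and open triangles near the axis mark a count of 0. Axin2, Nkd1, Lef1, Lgr6, Sfrp2, Wif1 and Dkk2 had all FGFRi points above all DMSO points, and Sfrp1 had all of them below.

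The first comparison asked how blocking FGF receptors with SU5402 changed these genes. Under the inhibitor, 6 members were called higher (Axin2, Nkd1, Lgr6, Sfrp2, Wif1 and Dkk2), Sfrp1 was called lower, and Lef1 and Sp5 were not called. Of all genes tested, 9.73% were called higher and 10.7% lower. The median log2 change of the 9 tested members was 1.34, and that of all genes was -0.02. Because the choice of the members used this contrast, nothing is read from that count.

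Among the feedback targets inside the cell, Axin2, a scaffold of the complex that degrades β-catenin, had 44.4, 36.8 and 29.6 CPM in FGFRi libraries, against 8.44, 11.8 and 15.1 CPM in DMSO libraries. All FGFRi libraries were above all DMSO libraries, with FGFRi 1 highest and DMSO 1 lowest. The change was 1.62 ± 0.18 on the log2 scale (SE), a 3.08-fold higher level. Nkd1, which binds Dishevelled and restrains the signal, had 12.3, 8.85 and 10.02 CPM in FGFRi libraries, against 2.07, 5.10 and 4.27 CPM in DMSO libraries. All FGFRi libraries were above all DMSO libraries, DMSO 1 being the lowest by a wide margin, and the log2 change was 1.33 ± 0.28 (SE).

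The transcription factors among the members differed from Axin2 and Nkd1 in what could be measured. Lef1, which carries β-catenin to DNA, had only 7, 5 and 11 counts in FGFRi libraries, against 1, 2 and 2 counts in DMSO libraries. These are 1.28, 0.540 and 0.609 CPM in FGFRi libraries and 0.159, 0.104 and 0.328 CPM in DMSO libraries. The groups did not overlap, but with so few counts the log2 change of 2.103 ± 0.758 (SE) had a 95% interval of 0.49 to 3.72 and was not called. Sp5, a zinc-finger repressor and a common Wnt target, had 3.67, 4.32 and 3.43 CPM in FGFRi libraries, against 6.21, 4.84 and 2.63 CPM in DMSO libraries. The groups overlapped, since the DMSO libraries lay on both sides of the FGFRi libraries, and the log2 change of -0.28 ± 0.27 (SE) had a 95% interval of -0.86 to 0.29.

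Lgr6, a receptor for R-spondins and itself a Wnt-responsive gene in other tissues, had 25.9, 29.9 and 22.3 CPM in FGFRi libraries, against 6.21, 11.1 and 12.8 CPM in DMSO libraries. The FGFRi libraries were close to each other and all were above the DMSO libraries, DMSO 1 again being the lowest. The log2 change was 1.34 ± 0.18 (SE), a 2.53-fold higher level.

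The 2 secreted Frizzled-related proteins, which carry a Frizzled-like domain that binds Wnts, moved in opposite directions. Sfrp2 had 83.7, 67.7 and 59.6 CPM in FGFRi libraries, against 19.4, 17.9 and 22.7 CPM in DMSO libraries. The groups were far apart, and the log2 change of 1.82 ± 0.13 (SE), or 3.53-fold, had the smallest error among the members called higher. Sfrp1 had 316, 371 and 327 CPM in FGFRi libraries, against 600, 454 and 465 CPM in DMSO libraries. All FGFRi libraries were below all DMSO libraries, with DMSO 1 well above the other DMSO libraries, and the log2 change was -0.58 ± 0.11 (SE), a level 0.668 times that in DMSO. Scaled to library totals, the log2 change of Sfrp1 was -0.55 and was not called. A list of 7 end bud genes, including Sox9, Kit, Aqp5 and the FGF response gene Etv5, was also lower under the inhibitor. It summed to 370 to 494 CPM in FGFRi libraries, against 687 to 896 CPM in DMSO libraries, and 6 of the 7 were called lower. In the cross it summed to 581 to 599 CPM in HOM, 602 to 709 CPM in HET and 637 to 646 CPM in WT libraries. The HOM sums were below every control, while Sfrp1 in HOM libraries lay within the range of the controls. The part of the end bud level in the Sfrp1 change was not tested.

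Since both Sfrp genes were read in the same libraries, their ratio needs no scaling between libraries. FGFRi libraries had 3.78, 5.48 and 5.49 Sfrp1 reads for each Sfrp2 read, against 30.9, 25.3 and 20.5 in DMSO libraries. The ratio averaged 4.92 ± 0.99 in FGFRi and 25.6 ± 5.2 in DMSO libraries (SD, n = 3 each), with no overlap. Sfrp1 made up 62.7% to 70.6% of the summed CPM of the 10 members in FGFRi libraries, against 87.7% to 92.8% in DMSO libraries. The sum of all 10, 463 to 532 CPM in FGFRi and 510 to 647 CPM in DMSO libraries, overlapped between the groups, while the sum without Sfrp1 was 136 to 188 CPM in FGFRi and 46.5 to 65.2 CPM in DMSO libraries.

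**Figure D2:**
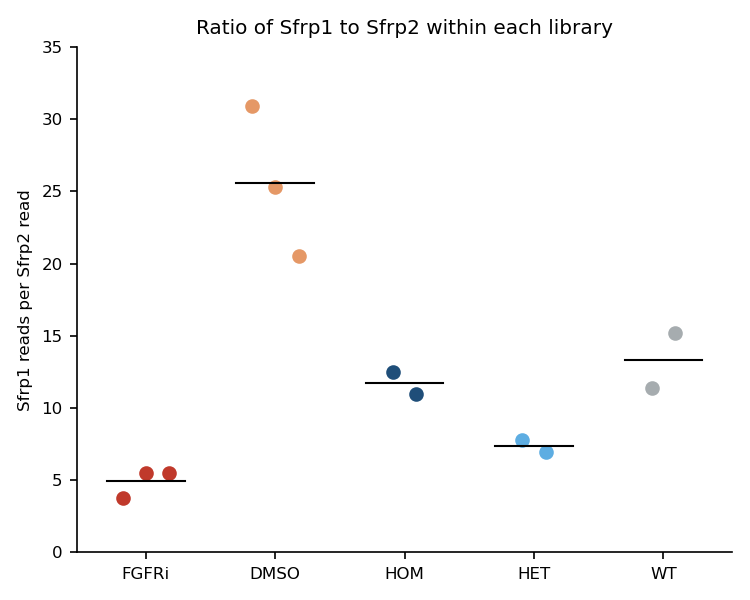
Reads of Sfrp1 for each read of Sfrp2 within each library (linear axis from 0), by group; points are libraries and bars are group means. The 3 FGFRi libraries lie at 3.78 to 5.49, below the DMSO libraries at 20.5 to 30.9, while HOM libraries (12.5 and 11) lie between HET (7.78 and 6.92) and the higher WT library (15.2).

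Of the other secreted inhibitors, Dkk2, a ligand of the Lrp5 and Lrp6 co-receptors, had 13.9, 10.7 and 8.74 CPM in FGFRi libraries, against 3.02, 4.99 and 6.90 CPM in DMSO libraries. FGFRi 3 and DMSO 3 came close, but the groups did not overlap, and the log2 change was 1.12 ± 0.24 (SE). Wif1, a secreted protein that binds Wnts directly, had 2.2, 1.19 and 1.55 CPM in FGFRi libraries, against 0.796, 0.468 and 0.164 CPM in DMSO libraries, from 12, 11 and 28 counts in FGFRi and 5, 9 and 1 counts in DMSO libraries. The groups did not overlap, and the log2 change was 1.73 ± 0.52 (SE). The call of Wif1 was lost without FGFRi 1 (log2 change 1.55), FGFRi 3 (1.76), DMSO 2 (1.70) or DMSO 3 (1.45), and also with DESeq2 (1.78), scaling to library totals (1.71) or sex as a covariate (1.70). Notum, a secreted enzyme that removes the lipid from Wnt proteins, had 2, 7 and 3 counts in FGFRi libraries, against 1, 2 and 2 counts in DMSO libraries. The groups overlapped, and at this depth no difference was detectable.

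In all, 7 of the 10 members had FGFRi libraries above every DMSO library and 1 had them below; over all genes tested, 17.2% had all FGFRi libraries above and 20.5% had all below. The other 6 called members kept their call when any 1 of the 6 libraries was left out. Without DMSO 2 the libraries compared were all female. The log2 changes were then 1.62 for Axin2, 1.69 for Nkd1, 1.45 for Lgr6, 1.73 for Sfrp2, 1.12 for Dkk2 and -0.66 for Sfrp1, all called, while Wif1 (1.70) lost its call and Lef1, not called in either fit, was at 1.56 against 2.103 with all libraries. Antisense genes overlap exons of Sfrp2 (16.1% of its exon bases), Lef1 (13.7%), Notum (29.4% and 8.72%) and Axin2 (3.80%), and the use of read strand in the counting is not given in the sources used here. The overlapping antisense gene of Sfrp2, Gm26771, had 0 to 4 counts per library and that of Axin2, Gm11670, 0 to 7 counts.

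**Figure D3:**
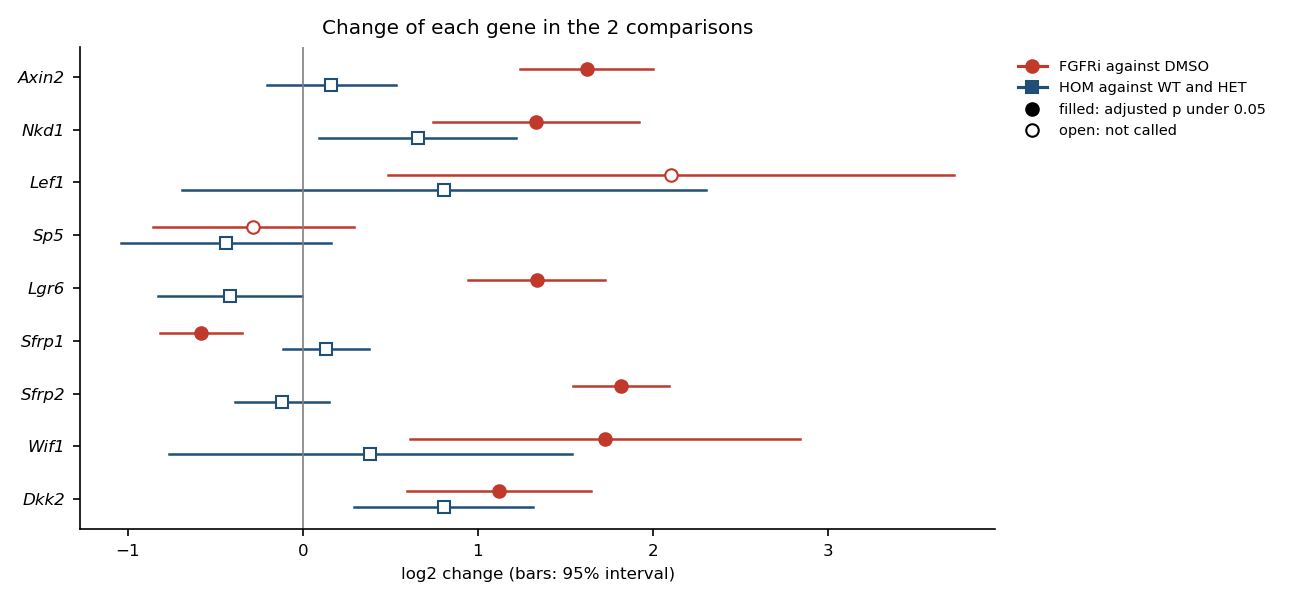
Log2 change of the 9 tested members in FGFRi against DMSO (circles) and in HOM against the WT and HET controls (squares), with 95% intervals; filled points were called at an adjusted p under 0.05 over all genes. Sfrp2 at 1.82 and Axin2 at 1.62 have narrow intervals in FGFRi, and all 9 squares are open.

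Since mesenchymal sums were higher and epithelial sums lower under the inhibitor, each change was recomputed with libraries scaled to the summed counts of either list. These scalings moved the median log2 change of all genes to 0.46 (epithelial list) and to -0.89 (mesenchymal list). Per epithelial counts, Axin2 (2.12 ± 0.22), Sfrp2 (2.31 ± 0.17), Lgr6 (1.83 ± 0.20), Nkd1 (1.85 ± 0.30), Dkk2 (1.62 ± 0.28), Wif1 (2.23 ± 0.55) and Lef1 (2.58 ± 0.79) were called higher (log2 change ± SE), on a scale where 55.3% of all genes were called higher and 0.94% lower. Sfrp1 per epithelial counts was at -0.10 ± 0.11 and was not called, and Sp5 was at 0.21 ± 0.27. Per mesenchymal counts, Sfrp2 (0.90 ± 0.15), Axin2 (0.72 ± 0.18) and Lgr6 (0.46 ± 0.19) were still called higher, whereas Nkd1 (0.46 ± 0.27), Wif1 (0.85 ± 0.57), Lef1 (1.26 ± 0.81) and Dkk2 (0.23 ± 0.23) were not called. Sfrp1 (-1.48 ± 0.17) and Sp5 (-1.16 ± 0.30) were called lower on that scale. Of all genes, 1.75% were called higher and 71% lower per mesenchymal counts. The members called higher in all 3 scalings were Axin2, Lgr6 and Sfrp2, and no member called higher in 1 was called lower in another. Relative to the median of all genes, the log2 change of Axin2 was 1.66 per epithelial and 1.62 per mesenchymal counts, and that of Sfrp1 was -0.57 and -0.58. A scaling shifts all genes by nearly the same amount, so these values lie near the TMM changes by construction. Which cells carried each transcript was not tested.

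**Figure D4:**
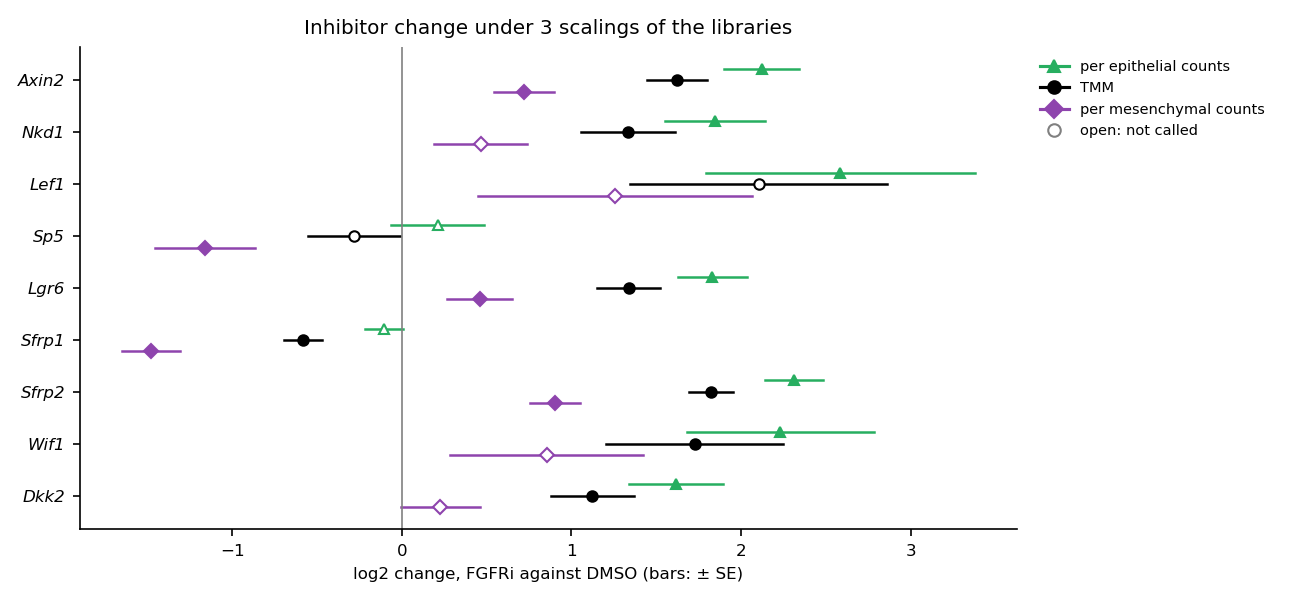
Log2 change in FGFRi against DMSO (± SE) of the 9 tested members with libraries scaled to epithelial-list counts (triangles), by TMM (circles) or to mesenchymal-list counts (diamonds); open points were not called. Sfrp1 runs from -0.10 per epithelial counts to -1.48 per mesenchymal counts, and Sfrp2 from 2.31 to 0.90.

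The second comparison asked what the epithelial deletion of Fgfr2b did, with the mean of both littermate groups as control. Dkk2 and Nkd1 had higher levels and Lgr6 and Sp5 lower levels in both HOM libraries than in every control; over all genes tested, 13.4% had both HOM libraries above and 12.2% had both below. None of the 9 tested members was called by edgeR in HOM glands, where 5.88% of all genes were called (3.44% higher and 2.44% lower). At an unadjusted p under 0.05, 3 members passed (Lgr6, Nkd1 and Dkk2), as did 3077 of all genes. DESeq2 called 0 members, and limma-voom called 1, Dkk2. The median log2 change of the members was 0.16, and that of all genes was 0.00.

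Dkk2 had 6.88 and 8.44 CPM in HOM libraries, against 5.83 and 4.66 CPM in HET libraries and 4.10 and 3.24 CPM in WT libraries. Both HOM libraries were above all 4 controls, the HET libraries lay between, and the log2 change was 0.80 ± 0.24 (SE). Against the WT libraries alone, Dkk2 was called higher, at 1.05 ± 0.30 (SE). Against the HET libraries alone it was at 0.555 ± 0.279 (SE) and was not called. Nkd1 had 6.08 and 8.27 CPM in HOM libraries, against 3.94 and 5.95 CPM in HET libraries and 5.20 and 3.24 CPM in WT libraries. HOM 1 was just above the highest control, so the groups were separated by little, and the log2 change was 0.66 ± 0.27 (SE).

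Lgr6 went the other way in level: it had 8.48 and 9.06 CPM in HOM libraries, against 10.14 and 9.81 CPM in HET libraries and 12.5 and 15.5 CPM in WT libraries. The HOM libraries were below all 4 controls, with the WT libraries highest, at a log2 change of -0.42 ± 0.19 (SE). Axin2 had 18.2 and 19.5 CPM in HOM libraries, against 15.7 and 19.5 CPM in HET libraries and 17.9 and 14.5 CPM in WT libraries. The groups overlapped, and the log2 change of 0.16 had a 95% interval of -0.21 to 0.53.

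Sfrp1 had 396 and 389 CPM in HOM libraries, against 349 and 299 CPM in HET libraries and 371 and 419 CPM in WT libraries. Sfrp2 had 31.7 and 35.5 CPM in HOM libraries, against 44.9 and 43.2 CPM in HET libraries and 32.7 and 27.7 CPM in WT libraries. For both genes the HOM libraries lay within the range of the controls. The log2 changes were 0.13 for Sfrp1, with a 95% interval of -0.11 to 0.38, and -0.12 for Sfrp2, with a 95% interval of -0.39 to 0.15.

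The low-count members gave less. Sp5 had 2.24 and 2.90 CPM in HOM libraries, against 3.94 and 4.5 CPM in HET libraries and 3.003 and 2.92 CPM in WT libraries, so HOM 2 was barely below the WT libraries. Wif1 had 0.880 and 0.455 CPM in HOM libraries, against 0.379 and 0.804 CPM in HET libraries and 0.366 and 0.432 CPM in WT libraries, which overlap. Lef1 had 4 and 13 counts in HOM libraries, against 5 and 13 counts in HET libraries and 2 and 0 counts in WT libraries. Notum had 1 and 6 counts in HOM libraries and 1, 1, 1 and 0 in the controls, where a count of 0 in WT 2 allows up to 0.324 CPM (3 counts, counting error only). At this depth a difference in Lef1 or Notum was not detectable.

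The HOM values also moved with the tissue scale. Per epithelial counts 4 members were called higher: Axin2 (0.63 ± 0.21), Nkd1 (1.11 ± 0.28), Sfrp1 (0.61 ± 0.12) and Dkk2 (1.27 ± 0.27). On that scale 59% of all genes were called higher, so 4 of 9 members is no more than the background. Per mesenchymal counts 3 were called lower: Lgr6 (-0.81 ± 0.21), Sfrp2 (-0.51 ± 0.15) and Sp5 (-0.84 ± 0.31), where 32.4% of all genes were called lower, a share close to that of the members, and 1.23% higher. These scalings moved the median of all genes in HOM to 0.47 and -0.39. Relative to that median Dkk2 was at 0.80 in both, which is near its TMM change by construction.

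The inhibitor and the deletion were then compared directly, as the log2 change in FGFRi glands minus that in HOM glands. This difference was called for 4 of the 9 tested members, and for 2.77% of all genes. Because the choice of the members used these same libraries, nothing is read from that count. HOM libraries were female and their controls male, so sex and genotype cannot be told apart in this difference either. The difference was 1.94 ± 0.18 for Sfrp2, 1.75 ± 0.27 for Lgr6, 1.46 ± 0.25 for Axin2 and -0.72 ± 0.16 for Sfrp1 (log2, SE). The call of Sfrp1 was lost without FGFRi 1 (value -0.66), HOM 1 (-0.70), HOM 2 (-0.73), HET 2 (-0.66) or WT 1 (-0.66), and also with library totals (-0.84). That of Axin2 was lost without HOM 2 (value 1.51). The difference was smaller and not called for Nkd1 (0.68, 95% interval -0.15 to 1.502) and Dkk2 (0.32, 95% interval -0.42 to 1.06). It was also not called for Sp5 (0.16, 95% interval -0.67 to 0.98), Wif1 (1.34, 95% interval -0.29 to 2.97) or Lef1 (1.30, 95% interval -1.13 to 3.73), whose intervals span a wide range.

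The control groups were compared among themselves. Between HET and WT glands edgeR called 0 members and 1.22% of all genes, and DESeq2 and limma-voom also called 0 members. At an unadjusted p under 0.05, 2 members (Sfrp2 and Lef1) and 2144 of all genes passed. The log2 changes were 0.54 ± 0.15 for Sfrp2, -0.29 ± 0.14 for Sfrp1 and -0.47 ± 0.22 for Lgr6 (SE). Both HET libraries were above both WT libraries for Sfrp2, Lef1, Dkk2 and Sp5 and, at 1 count or fewer per library, Notum, and below them for Sfrp1 and Lgr6. Over all genes tested, 24.1% had both HET libraries above and 22.1% had both below. The Sfrp1 to Sfrp2 ratio was 7.78 and 6.92 in HET libraries, against 11.4 and 15.2 in WT libraries, beside mesenchyme sums of 3520 to 3850 CPM in HET and 2430 to 2540 CPM in WT. The part of the mesenchyme level in this was not tested.

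Between the 2 wild-type controls, DMSO glands and untreated WT glands, 1 member and 2.26% of all genes were called. Sfrp2 was lower in DMSO glands by a log2 change of -0.62 ± 0.15 (SE), but this call was lost without DMSO 1 (-0.62), DMSO 2 (-0.53), WT 1 (-0.49) or WT 2 (-0.73), and with library totals (-0.47), per epithelial counts (-0.69) or per mesenchymal counts (-0.50). Sfrp1 was at 0.36 ± 0.12, Axin2 at -0.47 ± 0.20 and Lgr6 at -0.44 ± 0.21 (log2, SE), none of them called. The Sfrp1 to Sfrp2 ratio did not overlap between these groups either, at 30.9, 25.3 and 20.5 in DMSO and 11.4 and 15.2 in WT libraries. The FGFRi comparison shares the DMSO libraries with this one.

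The rest of the pathway was read from 5 lists of other Wnt genes, given by counts of genes that passed edgeR's test with adjustment over all genes. These lists were chosen with earlier results of these data known, and the genes named are called genes taken in order of p. Their counts and p-values are therefore a description. Over all genes tested, 9.73% were called higher and 10.7% lower under the inhibitor. Under the inhibitor the Wnt ligands had 7 of 10 tested genes higher and 0 lower, with a median log2 change of 1.30 against -0.02 for all genes. Wnt2b averaged 9.38 ± 1.79 CPM in FGFRi and 3.4 ± 0.33 CPM in DMSO glands (SD, n = 3 each; log2 change 1.45, edgeR adjusted p = 0.000234). Wnt11 averaged 5.68 ± 0.40 CPM in FGFRi and 2.29 ± 0.29 CPM in DMSO glands (log2 change 1.29, edgeR adjusted p = 0.000597). Wnt5a, a ligand known for β-catenin-independent signalling, averaged 14.2 ± 4.04 CPM in FGFRi and 5.79 ± 2.38 CPM in DMSO glands (log2 change 1.31, edgeR adjusted p = 0.00294). The 9 other ligands, among them Wnt1, Wnt3a and Wnt7a, were too low to be tested.

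Among the other secreted modulators, 6 of 10 tested genes were higher under the inhibitor and 1 was lower, with a median of 0.86. Sfrp4, another secreted Frizzled-related protein, averaged 8.59 ± 2.66 CPM in FGFRi and 1.02 ± 0.27 CPM in DMSO glands (log2 change 3.07, edgeR adjusted p = 2.46e-05). Rspo3, an R-spondin that strengthens Wnt signals through Lgr receptors such as Lgr6, averaged 11.1 ± 0.99 CPM in FGFRi and 3.52 ± 0.52 CPM in DMSO glands (log2 change 1.67, edgeR adjusted p = 4.39e-05). Igfbp4 averaged 288 ± 33.2 CPM in FGFRi and 132 ± 11.1 CPM in DMSO glands, and Cthrc1, the gene of this list that fell, 6.92 ± 0.42 CPM in FGFRi and 11.6 ± 0.78 CPM in DMSO glands. Dkk1, Dkk4, Sfrp5, Sost, Rspo4 and Cer1 were too low to be tested.

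The other intracellular and surface targets were mixed, with 4 of 12 higher, 1 lower and a median of 0.10. Apcdd1, a membrane-bound Wnt inhibitor, had a log2 change of 1.03 (edgeR adjusted p = 0.0105), and Nkd2, the paralog of Nkd1, one of 0.72 (edgeR adjusted p = 0.0107). Tnfrsf19 was at 0.48. Ccnd1, the G1 cyclin, fell to 263 ± 38.3 CPM in FGFRi glands, against 467 ± 56.3 CPM in DMSO glands (SD, n = 3 each; log2 change -0.83, edgeR adjusted p = 0.000145). Receptors had 6 of 17 higher and 3 lower: the Wnt5a receptors Ror1 (0.66) and Ror2 (0.39) and the R-spondin receptor Lgr4 (0.48) were among the higher, and Fzd5 (-1.30), Lrp5 (-0.53) and Fzd6 (-0.29) were the lower (log2 changes). Secretion and intracellular transduction genes had 3 of 23 higher (Tle2 at 0.76, Pygo1 at 0.47 and Btrc at 0.38) and 1 lower (Dvl1 at -0.37), with a median of 0.00. The calls of Apcdd1 (without DMSO 2, 0.84), Nkd2 (without FGFRi 1, 0.59), Ror2, Fzd6, Pygo1 and Btrc were each lost when at least 1 library was left out. Scaled to mesenchymal counts, Wnt11 (0.41), Wnt5a (0.40), Igfbp4 (0.22) and Apcdd1 (0.13) were no longer called, and 8 of the named genes had the opposite sign (Nkd2, Tnfrsf19, Ror1, Ror2, Lgr4, Tle2, Pygo1 and Btrc). Scaled to epithelial counts, Cthrc1 (-0.26) and Lrp5 (-0.05) were no longer called, and Fzd6 and Dvl1 had the opposite sign. With library totals the calls of Tnfrsf19, Lgr4, Ror2, Lrp5, Fzd6, Pygo1, Btrc and Dvl1 were lost, at values of the same sign.

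In HOM glands the calls in the same lists were 2 of 10 secreted modulators higher, 3 of 17 receptors higher, 1 of 10 ligands lower, and none of the 12 targets or 23 transduction genes. Over all genes tested, 3.44% were called higher and 2.44% lower in HOM glands, and these list counts are a description as well. Igfbp4 averaged 317 ± 46.8 CPM in HOM glands, against 220 ± 2.76 CPM in HET and 152 ± 4.78 CPM in WT glands (SD, n = 2 each; log2 change 0.80, edgeR adjusted p = 0.000442). Rspo1 averaged 10.21 ± 1.28 CPM in HOM glands, against 6.04 ± 2.06 CPM in HET and 4.09 ± 1.85 CPM in WT glands (log2 change 1.05, edgeR adjusted p = 0.0285), and this call was lost without HOM 1, HOM 2, HET 2 or WT 1. Wnt5b fell by 0.53 on the log2 scale, a call lost without either HOM library. The receptors called higher were Ror2 (0.66), Fzd9 (0.59) and Fzd2 (0.34), and the call of Fzd2 was lost without any 1 of the 6 libraries, where its log2 change ran between 0.25 and 0.42. Fzd9's call was lost without HOM 2, HET 1, WT 1 or WT 2. Per mesenchymal counts Ror2 (0.26) and Fzd9 (0.19) were not called and Fzd2 was at -0.06, and per epithelial counts Wnt5b (-0.06) was not called. With library totals Wnt5b (-0.38) and Fzd2 (0.48) were not called.

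**Figure D5:**
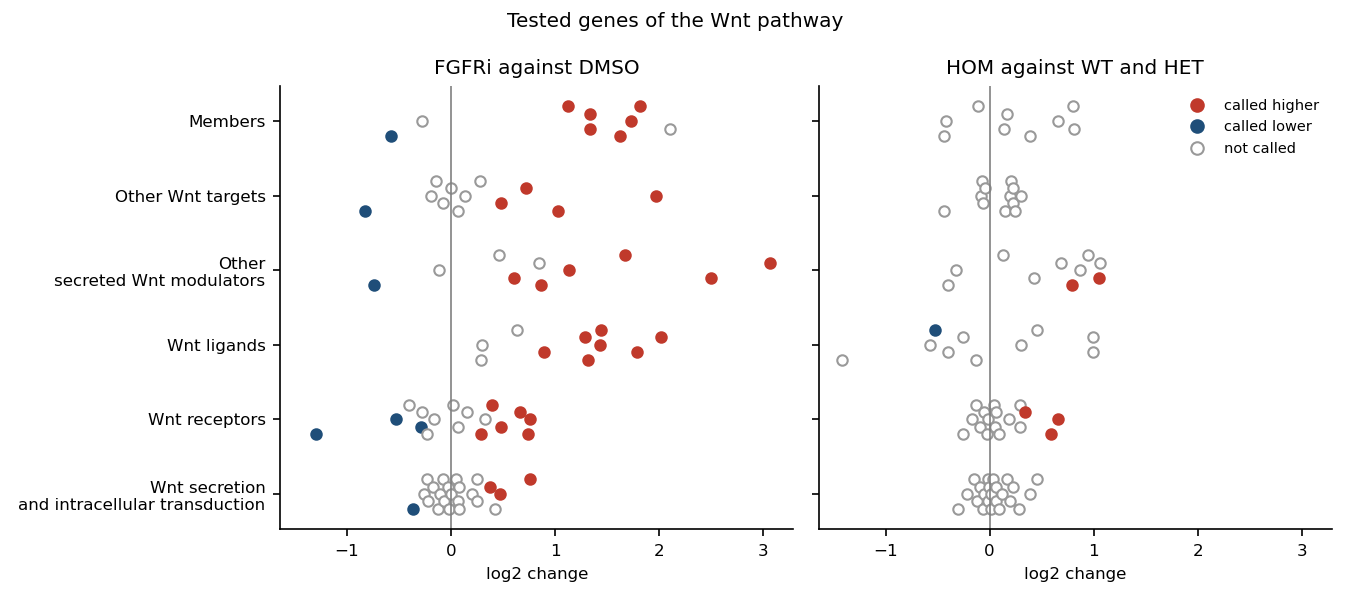
Log2 change of each tested gene of the members and of the 5 other Wnt lists, in FGFRi against DMSO (left) and in HOM against the WT and HET controls (right); each point is a gene, red was called higher, blue was called lower and open grey was not called. In FGFRi the points called higher reach 3.07 (Sfrp4) among secreted modulators, and the points called lower reach -1.30 (Fzd5) among receptors.

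Members were also compared with each other and with other genes over the 12 libraries by Pearson's r of log2 CPM, given as a description because the libraries share groups and scaling. Axin2 followed Sfrp2 (r = 0.93) and Nkd1 (r = 0.91) most closely, and Nkd1 followed Dkk2 (r = 0.88). Sfrp1 ran against Sfrp2 (r = -0.81) and Axin2 (r = -0.76), and Sp5 followed no member beyond an r of 0.28 in size. Of 10379 genes with a mean of at least 5 CPM, the most like Axin2 were Aox3 (r = 0.97), Ccn4 (r = 0.96) and Prokr1 (r = 0.96). Those most like Sfrp2 were Prokr1 (r = 0.97), Ehd2 (r = 0.97) and Fat4 (r = 0.96), and those most like Sfrp1 were Nolc1 (r = 0.96), Acy1 (r = 0.95) and Tkt (r = 0.92). Prokr1, which stood in both the Axin2 and the Sfrp2 list, averaged 12.3 ± 2.42 CPM in FGFRi and 4.14 ± 0.40 CPM in DMSO glands (SD, n = 3 each), and 6.80 ± 0.91 CPM in HOM, 6.76 ± 0.56 CPM in HET and 5.56 ± 1.14 CPM in WT glands (SD, n = 2 each).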

How the data were processed

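The deposited values are raw counts of reads per gene, whole numbers with no normalization, in 1 table of 12 libraries. Per the labels' protocols, ribosomal RNA was removed before library preparation with an NEBNext Ultra II kit, and per the submitters' processing notes bcl2fastq, STAR and build GRCm39 were used, without versions. No source used here gives the counting program, the annotation or the use of strand. Symbols were matched by Ensembl identifier (52403 of 52636 matched) to GENCODE M21 (build GRCm38), which also gave exon lengths and overlaps.

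Counts were fitted in R 4.3.3 with edgeR 4.0.16 (glmQLFit and glmQLFTest, TMM, filterByExpr with a minimum count of 10 and total of 15), with 1 coefficient per group over all 12 libraries (residual df 7). P-values were two-sided with Benjamini-Hochberg adjustment over 15859 genes, and the SE is the log2 change divided by the square root of F. Contrasts set FGFRi against DMSO and HOM against the average of WT and HET, then the first effect against the second, HET against WT and DMSO against WT. On simulated data with these means and library sizes, the fit recovered 85 of 93 genes changed by 1 on the log2 scale in FGFRi against DMSO and 87 of 94 in HOM against WT and HET. The changed genes excluded those of lowest mean, and no shift of tissue or sex was simulated. These shares therefore do not carry over to low-count members or to the measured HOM comparison. No pair of replicates agreed within sampling noise (chi-square per degree of freedom 18.55 or more). Depth sets the precision: reads carry no molecular identifiers, so a floor of 3 counts covers counting error only.

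The members and all lists were chosen with earlier results of these data known. Beside the members, up to 3 called genes per direction in order of p were named from each other Wnt list and main comparison, and the 3 genes most alike Axin2, Sfrp1 and Sfrp2. Alternatives were DESeq2 1.42.0 and limma-voom (limma 3.58.1), other scalings and filters, a replicate block, sex as a covariate, other sets of controls and each library left out in turn; the crossed block was added after the data were seen. Promoters were searched in Python 3.11.15 and figures drawn with matplotlib 3.10.9.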

Additional observations from a re-analysis of the deposited data

Results flagged for a closer look

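These values were picked out because the change in FGFRi glands differed from the change in HOM glands by the test of that difference over all genes. The members were themselves chosen on values of these libraries, so their calls are given as a description. Among the members, the FGFRi change minus the HOM change on the log2 scale (± SE) was 1.46 ± 0.25 for Axin2, 1.75 ± 0.27 for Lgr6, 1.94 ± 0.18 for Sfrp2 and -0.72 ± 0.16 for Sfrp1. Sfrp2 and Lgr6 kept this call with each library left out in turn, Axin2 lost it without HOM 2, and Sfrp1 lost it without FGFRi 1, HOM 1, HOM 2, HET 2 or WT 1.

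Among the other named Wnt genes, the difference was 2.00 ± 0.50 for Sfrp4 (edgeR adjusted p = 0.0448), 1.248 ± 0.273 for Rspo3 (edgeR adjusted p = 0.0265) and 0.83 ± 0.15 for Wnt5b (edgeR adjusted p = 0.0088). It was -0.75 ± 0.16 for Ccnd1 (edgeR adjusted p = 0.0222), -1.04 ± 0.14 for Fzd5 (edgeR adjusted p = 0.000942) and -0.99 ± 0.21 for Fzd9 (edgeR adjusted p = 0.0215). Wnt5b and Fzd9 had opposite signs in the 2 comparisons, at 0.29 and -0.40 in FGFRi glands and at -0.53 and 0.59 in HOM glands. Neither was called in FGFRi glands, and the HOM calls of both were lost without HOM 2. Sostdc1, Wnt4 and Wls, list genes that the naming rule left out, also had a called difference and opposite signs. They were at 0.60, 0.89 and 0.25 in FGFRi glands, where Sostdc1 and Wnt4 were called, and at -0.32, -0.40 and -0.30 in HOM glands, where none was called. By their Xist and Y-linked counts, all FGFRi and HOM libraries were female, all HET and WT libraries male, and 1 of the 3 DMSO libraries male. With sex as a covariate the Sfrp1 difference was -0.56 and was no longer called, and the other 3 members kept their call. Sex varied within a group only in DMSO, so the sex term rested on DMSO 2 alone. That term cannot separate sex from genotype, and nothing is read from these calls.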

How the results depend on the processing

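The count of members called in FGFRi glands, 7 in the main fit, was 5 to 7 over all 19 alternatives. It was 5 after scaling by library totals or mesenchymal counts. The members behind the count changed: per epithelial counts Lef1 was called and Sfrp1 was not. Per mesenchymal counts Sp5 was called lower, while Nkd1, Wif1 and Dkk2 were not called. The HOM count of 0 became 1 with library totals (536 of all genes higher and 96 lower), limma-voom, the compared groups alone or WT alone as controls, and 2 with no low-count filter. It became 4 per epithelial counts, where 59% of all genes were called higher, and 3 per mesenchymal counts, where 32.4% were called lower. It stayed at 0 with each library left out, where 140 to 658 of all genes were called. The difference between inhibitor and deletion called 2 to 4 members with a library left out, beside 77 to 560 of all genes. HET against WT gave 2 members per mesenchymal counts, where 133 of 15859 genes were called higher and 8133 lower. It gave 1 with no low-count filter or the compared groups alone. DMSO against WT gave 0 with library totals, per epithelial counts, per mesenchymal counts or with a replicate block, and 0 to 1 with a library left out.

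Signs changed as follows (log2). In FGFRi, Sp5 was at 0.21, Fzd6 at 0.19 and Dvl1 at 0.11 per epithelial counts, and per mesenchymal counts Nkd2 was at -0.19, Tnfrsf19 -0.40, Ror1 -0.23, Lgr4 -0.42, Ror2 -0.49, Tle2 -0.13, Pygo1 -0.44 and Btrc -0.50. In HOM per mesenchymal counts, Axin2 was at -0.24, Sfrp1 -0.26 and Fzd2 -0.056, and per epithelial counts Lgr6 was at 0.05, Sfrp2 0.35, Sp5 0.021 and Cdh1 0.006. Lef1 in HOM was at -0.34 with sex as a covariate, a term that rests on DMSO 2 alone, and -0.64 with HET alone. Sfrp1 in HOM was at -0.10 with sex and -0.009 with WT alone, Sfrp2 at 0.028 with library totals and 0.15 with WT alone, and Wif1 between -0.082 (without HOM replicate 1) and 0.852 (without HOM replicate 2). The difference was -0.18 for Dkk2 and -0.32 for Sp5 per mesenchymal counts; with 1 library left out, Lef1 ran from -0.32 (without WT replicate 1) to 1.77 and Sp5 from -0.075 (without DMSO replicate 3) to 0.376. Sfrp2 in HET against WT was at -0.031 per mesenchymal counts. The cause was not tested.

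Genes called ran, over all alternatives but leaving out a library, from 1303 to 11530 against 3245 in FGFRi, 46 (sex as a covariate) to 9431 against 933 in HOM, 169 to 3562 against 439 for the difference, 151 to 8266 against 194 in HET against WT and 244 to 797 against 358 in DMSO against WT. The 46 genes came with a sex term that rests on DMSO 2 alone and cannot separate sex from genotype. Leaving out HOM 2 gave 140 genes in HOM. Per epithelial counts FGFRi had 8774 genes higher and 149 lower, and per mesenchymal counts 277 higher and 11253 lower, against 1543 and 1702. Replicate numbers did not pair the FGFRi and DMSO samples (r of same-numbered deviations -0.08, -0.11 and -0.01). Between other groups, same-numbered libraries reached 0.25 (DMSO 1 and HET 1) and 0.24 (DMSO 2 and HET 2). Same-numbered HOM and WT libraries were at -0.15. With the replicate block, 7 members were called in FGFRi, 0 in HOM and 4 for the difference. Crossing the WT numbers gave 7, 0 and 4, and 0 in DMSO against WT. Lef1, Notum and Wif1 are limited by depth.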
